A study of Rattus norvegicus with 6 samples.

Results

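A set of 10 collagen genes that do not form the banded fibrils of the matrix was followed by name in nucleus pulposus cells (NPCs) under oxidative stress: Col4a1, Col4a2, Col4a5, Col6a1, Col6a2, Col6a3, Col8a1, Col12a1, Col14a1 and Col15a1. They are 10 of the 20264 gene rows in the combined count table, and each symbol holds 1 row. The rule that picks them uses the gene symbol and no measured value, but the list was chosen with earlier results of these data known. All 10 passed the filter on low counts, which left 11426 genes. The study compared NPCs treated with tert-butyl hydroperoxide (TBHP), an organic peroxide used to cause oxidative stress and senescence, with NPCs that received TBHP together with recombinant rat FGF21, a metabolic hormone of the fibroblast growth factor family. RNA-seq was done on 3 libraries of each group, here called T1, T2 and T3 for TBHP and F1, F2 and F3 for TBHP+FGF21.

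Both groups were primary cells from the caudal discs of male wild type Sprague-Dawley rats, both received TBHP, and no library without TBHP was measured here. The labels give no dose and no time. In the treatment labels F1 names FGF21, F2 names FGF22 and F3 names FGF23, while the description of the series gives FGF21 for the whole group; the 3 libraries were kept as a group by their titles. They are described as biological replicates, but nothing says whether they came from separate animals, so the p-values measure only the spread between these libraries, which may be technical.

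The combined table held between 18277732 and 22426190 counts per library. F2 stood apart from its own group: its mean Spearman correlation across genes was 0.996 with the TBHP libraries and 0.990 with F1 and F3. T3 was also slightly closer to the other group (0.9938 with the TBHP+FGF21 libraries) than to its own (0.9931 with T1 and T2). The tests of the 10 genes are given with and without F2, for which the gap was larger. Of the markers of the nucleus pulposus, Acan, which encodes the large proteoglycan of the disc, was between 2506 and 4353 CPM (counts scaled to the depth of each library), whereas the notochordal genes Tbxt, Shh and Noto had no count in any library and Col2a1 reached at most 0.782 CPM. Col1a1 took between 2.85% and 4.16% of all counts. In bulk RNA a smaller number of cells of a type and less RNA per cell cannot be told apart.

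Collagen IV chains assemble into the sheet-like network of basement membranes, and collagen VIII forms a related lattice under endothelia. Collagen VI chains build beaded microfilaments that surround disc and cartilage cells as a pericellular basket and tie them to the wider matrix. Collagens XII and XIV belong to the fibril-associated collagens with interrupted triple helices (FACITs), which decorate the surface of collagen I fibrils, and collagen XV is a multiplexin that links basement membranes to the fibrils beneath them.

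Col4a1 and Col4a2 lie head to head and share the stretch of DNA between their start sites, while Col6a1 and Col6a3, whose chains meet in the same filament, start on different chromosomes. The sequences are shown because these genes are compared chain against chain below. They come from RefSeq on the GRCr8 build, which holds a start window for 7 of the 10 genes (not Col6a2, Col12a1 or Col14a1), and the build of the deposited counts is not given in the sources used here. Capitals mark a GC box in the first sequence, read on the opposite strand, and an AP-1 motif in the second.
Between the starts of Col4a2 and Col4a1, chr16:84885521-84885596, plus strand: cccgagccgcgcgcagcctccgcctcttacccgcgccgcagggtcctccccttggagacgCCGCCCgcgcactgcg
Upstream of Col6a1, chr20:11905540-11905689, plus strand: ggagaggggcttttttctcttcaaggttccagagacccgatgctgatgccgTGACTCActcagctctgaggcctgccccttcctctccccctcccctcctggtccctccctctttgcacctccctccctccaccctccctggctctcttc
Upstream of Col6a3, chr9:98886959-98887108, minus strand: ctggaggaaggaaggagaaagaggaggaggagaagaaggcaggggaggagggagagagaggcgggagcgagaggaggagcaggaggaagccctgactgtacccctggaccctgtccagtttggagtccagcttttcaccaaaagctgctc
In the window of 300 bases around each start (250 before, 50 after), searched on both strands, the GC box GGGCGG was present for Col4a1, Col4a2, Col4a5 and Col8a1, that is 4 of 7 genes, and in 33.1% of 33469 rat windows. CCAAT was found for Col4a1 and Col4a2 and in 37.5% of all windows. The windows of Col4a1 and Col4a2 overlap. Their GC boxes are the same sites, and the CCAAT of Col4a2 is also a CCAAT of Col4a1. These genes are therefore not separate cases in the counts. The AP-1 motif TGANTCA was found only for Col6a1 among the 7, and in 7.33% of all windows, and TATAAA was found for none of the 7 and in 14.2% of all windows. These matches describe letters and not bound sites.

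The 10 collagen genes together took 1.25% to 1.38% of all counts in the TBHP libraries and 1.35% to 1.58% in the TBHP+FGF21 libraries, and the 3 collagen VI genes made up most of this (1.04% to 1.15% and 1.12% to 1.39% of all counts). With all 6 libraries, none of the 10 passed an adjusted p of 0.05 in edgeR's quasi-likelihood test, where 0.00875% of all genes tested (1 of 11426) did, and none of the 10 did with DESeq2 or limma-voom. At an unadjusted p under 0.05 there were 2 of 10, Col14a1 with a higher and Col15a1 with a lower fitted level in the TBHP+FGF21 group, against 8.92% of all genes. Without F2, which leaves 3 libraries against 2, Col14a1 passed the adjusted threshold, against 7.5% of all genes. In that fit 5 of 10 were under an unadjusted p of 0.05, namely the 3 collagen VI genes, Col12a1 and Col14a1, against 23.6% of all genes. F2 was set aside for its likeness to the TBHP libraries in these same data, a choice that by itself widens the difference between the groups. Calls made without F2, here and below, are therefore descriptions and no independent support. The groups did not overlap for 1 of 10, Col15a1, against 9.9% of all genes.

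**Figure D1:**
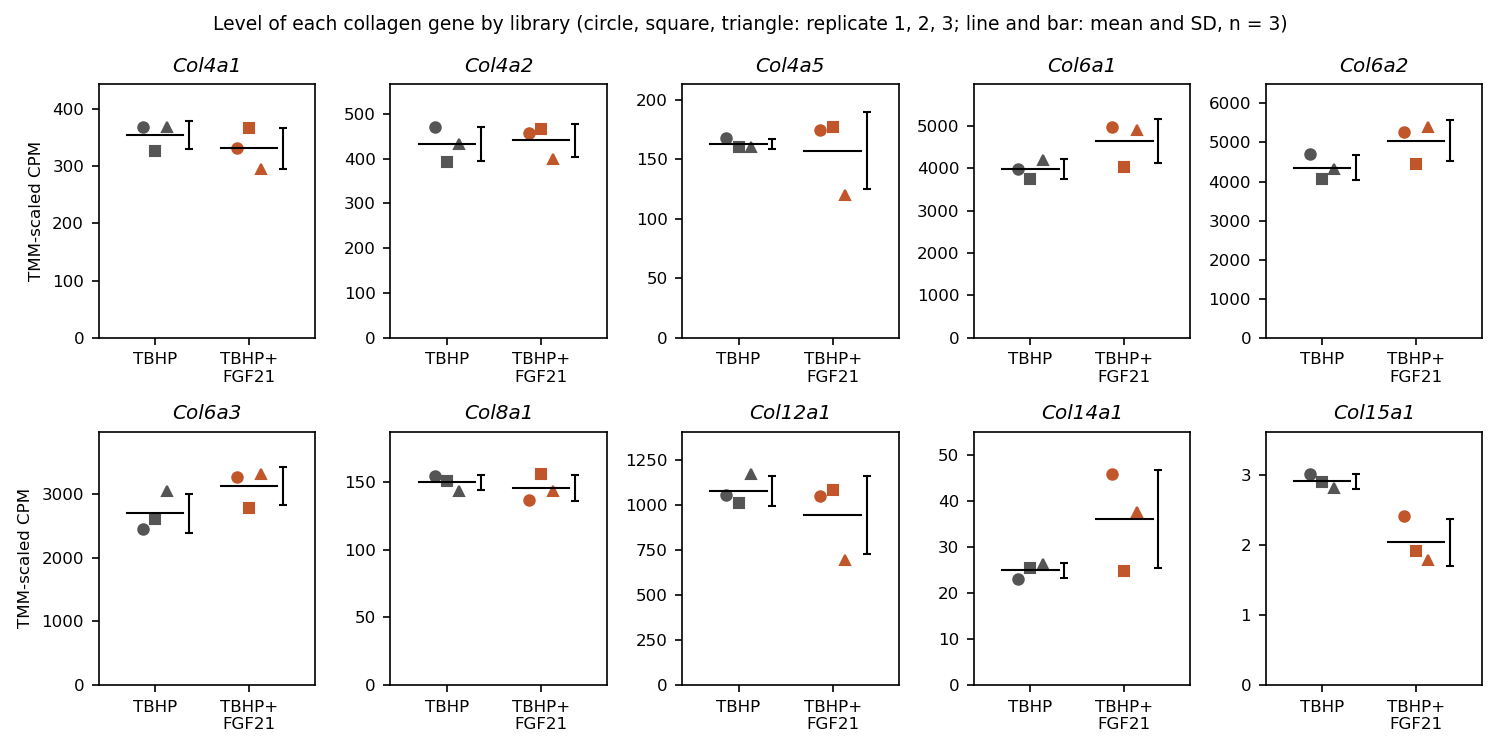
TMM-scaled CPM (vertical axis, from 0) of each of the 10 collagen genes in TBHP (grey) and TBHP+FGF21 (orange), with a point for each library, a line for the mean and a bar for the SD (n = 3). Col15a1 is the gene whose groups are apart (2.81 to 3.02 against 1.79 to 2.42 CPM), and F3 sits far below the other libraries for Col12a1 (696 CPM) and Col4a5 (120 CPM).

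Among the network collagens, the paired basement membrane chains Col4a1 and Col4a2 were near the same level in both groups. Col4a1 was at 369, 326 and 369 CPM in T1, T2 and T3 and at 332, 367 and 296 CPM in F1, F2 and F3. The 2 groups overlapped, with F3 the lowest and F2 within the TBHP range. Its log2 fold change was -0.10 (SE 0.11, 95% interval -0.33 to 0.13, adjusted p = 0.751 in edgeR's quasi-likelihood test), and -0.17 without F2 (adjusted p = 0.357). Col4a2 was at 471, 393 and 433 CPM in the TBHP libraries and at 457, 466 and 399 CPM in the TBHP+FGF21 libraries. All TBHP+FGF21 values fell inside the TBHP range, with a log2 fold change of 0.03 (SE 0.10, interval -0.20 to 0.25, adjusted p = 0.935, edgeR). Without F2 it was -0.01 (adjusted p = 0.981).

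Col4a5, an X-linked chain of the alternative basement membrane networks, behaved less evenly. It was at 168, 160 and 160 CPM in the TBHP libraries and at 174, 177 and 120 CPM in the TBHP+FGF21 libraries. F1 and F2 were above all TBHP libraries and F3 was below all of them. The coefficient of variation was 2.78% in TBHP and 20.5% in TBHP+FGF21. The log2 fold change was -0.05 (interval -0.34 to 0.24, adjusted p = 0.899, edgeR), -0.14 without F2 (adjusted p = 0.544) and 0.12 without F3, so that 1 library sets its sign. Col8a1 was at 155, 151 and 144 CPM in the TBHP libraries and at 137, 156 and 143 CPM in the TBHP+FGF21 libraries. Its groups overlapped, and it had the smallest ratio of the highest to the lowest library among the 10 genes (1.14). Its fitted log2 fold change was -0.04 (SE 0.09, interval -0.24 to 0.15, adjusted p = 0.880, edgeR) and -0.09 without F2 (adjusted p = 0.639).

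The 3 collagen VI chains of the beaded filament had higher values in F1 and F3 than in any TBHP library, and F2 stayed among the TBHP libraries. Col6a1 was at 3993, 3742 and 4200 CPM in the TBHP libraries and at 4980, 4040 and 4912 CPM in the TBHP+FGF21 libraries. Col6a2 was at 4701, 4063 and 4314 CPM in TBHP and at 5281, 4446 and 5404 CPM in TBHP+FGF21. Col6a3, whose chain is the longest of the filament, was at 2446, 2601 and 3044 CPM in TBHP and at 3273, 2788 and 3316 CPM in TBHP+FGF21. For all 3 genes the groups overlapped through F2 alone. Relative to the TBHP mean, F1 was 1.25-fold for Col6a1, 1.21-fold for Col6a2 and 1.21-fold for Col6a3, F3 was 1.23-fold, 1.24-fold and 1.23-fold for the same genes, and F2 was 1.02-fold, 1.02-fold and 1.03-fold.

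With all libraries the log2 fold change was 0.22 for Col6a1 (SE 0.11, interval -0.02 to 0.46, adjusted p = 0.553), 0.21 for Col6a2 (interval -0.03 to 0.45, adjusted p = 0.559) and 0.21 for Col6a3 (interval -0.04 to 0.46, adjusted p = 0.564) in edgeR's quasi-likelihood test. No collagen VI chain passed the threshold. Without F2 the values were 0.32 for Col6a1 (interval 0.09 to 0.55, adjusted p = 0.0789), 0.30 for Col6a2 (adjusted p = 0.104) and 0.30 for Col6a3 (adjusted p = 0.126), all short of the adjusted threshold in the same test. Summed over the 3 chains, collagen VI was at 11141, 10406 and 11558 CPM in the TBHP libraries and at 13534, 11274 and 13631 CPM in the TBHP+FGF21 libraries. The mean was 11035 ± 583 CPM (SD, n = 3) in TBHP and 12813 ± 1334 CPM (SD, n = 3) in TBHP+FGF21, a ratio of 1.16 with overlapping groups.

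**Figure D2:**
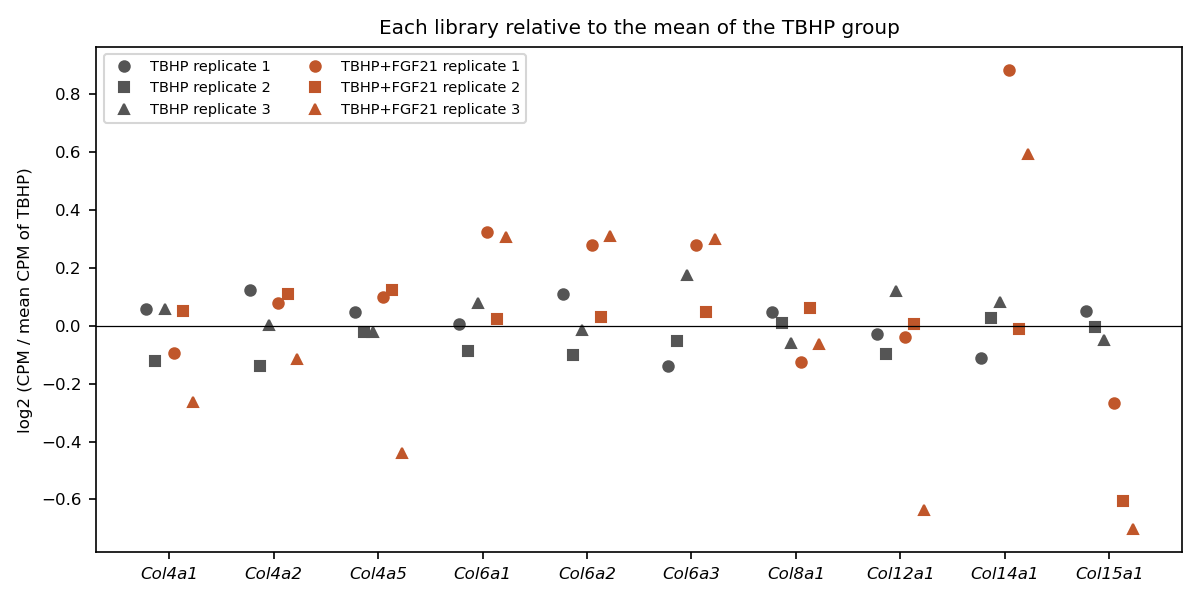
log2 of the CPM of each library over the TBHP mean of the same gene (vertical axis) for the 10 collagen genes, with grey for TBHP, orange for TBHP+FGF21 and a circle, square or triangle for replicate 1, 2 or 3. The orange circles and triangles of the 3 collagen VI genes lie above every grey point while the orange squares, which are F2, stay within the TBHP range, and F3 (orange triangles) is the lowest library for Col4a1, Col4a5, Col12a1 and Col15a1.

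The chains of a collagen molecule are assembled in a set proportion, so the balance between paired chains was read as a ratio of raw counts within each library, which no scaling between libraries can change. The ratio of Col4a1 to Col4a2 was 0.783, 0.829 and 0.852 in the TBHP libraries and 0.727, 0.787 and 0.741 in the TBHP+FGF21 libraries. F1 and F3 were below all TBHP libraries and F2 was just above T1. The difference in mean log2 ratio was -0.13 (two-sided exact permutation test, p = 0.2, where 0.1 is the smallest p that 3 libraries against 3 allow). Without F2 the difference was -0.16 (exact permutation p = 0.2, the smallest p that 3 libraries against 2 allow).

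The means of the collagen VI ratios differed less between the groups. Col6a1 to Col6a2 was 0.849, 0.921 and 0.974 in the TBHP libraries and 0.943, 0.909 and 0.909 in the TBHP+FGF21 libraries (difference in mean log2 ratio 0.01, exact permutation p = 1.0, and 0.02 without F2). Col6a3 to Col6a1 was 0.613, 0.695 and 0.725 in TBHP and 0.657, 0.690 and 0.675 in TBHP+FGF21 (difference -0.0041, exact permutation p = 0.9, and -0.02 without F2). For both pairs the TBHP+FGF21 values lay inside the TBHP range. These ratios hold no correction for transcript length and say nothing of how many chains of each kind the cell makes.

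**Figure D3:**
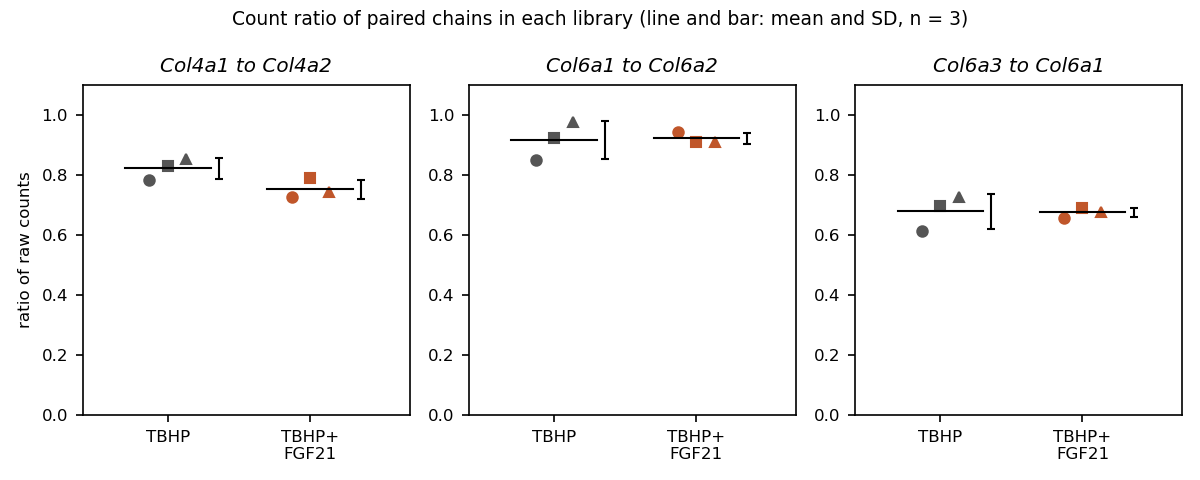
Ratio of raw counts (vertical axis, from 0) for Col4a1 to Col4a2, Col6a1 to Col6a2 and Col6a3 to Col6a1 in each library of TBHP (grey) and TBHP+FGF21 (orange), with the mean as a line and the SD as a bar (n = 3). The mean of Col4a1 to Col4a2 is 0.821 in TBHP and 0.752 in TBHP+FGF21 with overlapping groups, and the means of the collagen VI pairs are 0.915 and 0.920 and 0.677 and 0.674.

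The FACIT genes Col12a1 and Col14a1 had fitted changes of opposite sign. Col12a1, which is known from tendon, ligament and other matrices under load, was at 1059, 1010 and 1173 CPM in the TBHP libraries and at 1052, 1085 and 696 CPM in the TBHP+FGF21 libraries. F1 and F2 lay within the TBHP range and only F3 was below it, at 0.644 of the TBHP mean. In the fit Col12a1 had a log2 fold change of -0.19 (SE 0.15, interval -0.52 to 0.13, adjusted p = 0.654, edgeR). It was -0.30 without F2 (adjusted p = 0.206) and -0.01 without F3, so the lower group mean rests on F3.

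Col14a1, whose product coats collagen fibrils and limits their lateral growth, was at 23.0, 25.3 and 26.3 CPM in the TBHP libraries and at 45.8, 24.6 and 37.5 CPM in the TBHP+FGF21 libraries. F1 and F3 were 1.84-fold and 1.51-fold of the TBHP mean, and F2 was inside the TBHP range at 0.991-fold. The raw counts were 412, 558 and 561 against 967, 515 and 860. The log2 fold change was 0.53 (SE 0.18, interval 0.14 to 0.92, unadjusted p = 0.0119, adjusted p = 0.553) in edgeR's quasi-likelihood test, which ranked 179 by p among the 11426 genes. Without F2 Col14a1 rose by 0.75 on the log2 scale (SE 0.12, adjusted p = 0.00115, edgeR), a fold of 1.68 with a 95% interval of 1.41 to 2.01. Without F1 the value was 0.33 (adjusted p = 0.916). The call therefore depends on which library is left out.

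Col15a1 was the least counted of the 10 genes, with 54, 64 and 60 counts in the TBHP libraries and 51, 40 and 41 counts in the TBHP+FGF21 libraries. Scaled to depth it was at 3.02, 2.90 and 2.81 CPM in TBHP and at 2.42, 1.91 and 1.79 CPM in TBHP+FGF21, so every TBHP+FGF21 library, F2 included, was below every TBHP library. A two-sided exact permutation test of the group means gave p = 0.1, the smallest that 3 against 3 allows. The log2 fold change was -0.51 (SE 0.21, interval -0.98 to -0.05, unadjusted p = 0.0327, adjusted p = 0.553, edgeR), and -0.46 without F2 (adjusted p = 0.270). The 95% Poisson intervals of single libraries ran from 2.15 to 3.93 CPM in TBHP and from 1.28 to 3.18 CPM in TBHP+FGF21 and overlapped. These intervals cover counting error only, and reads without molecular identifiers are not independent molecules.

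**Figure D4:**
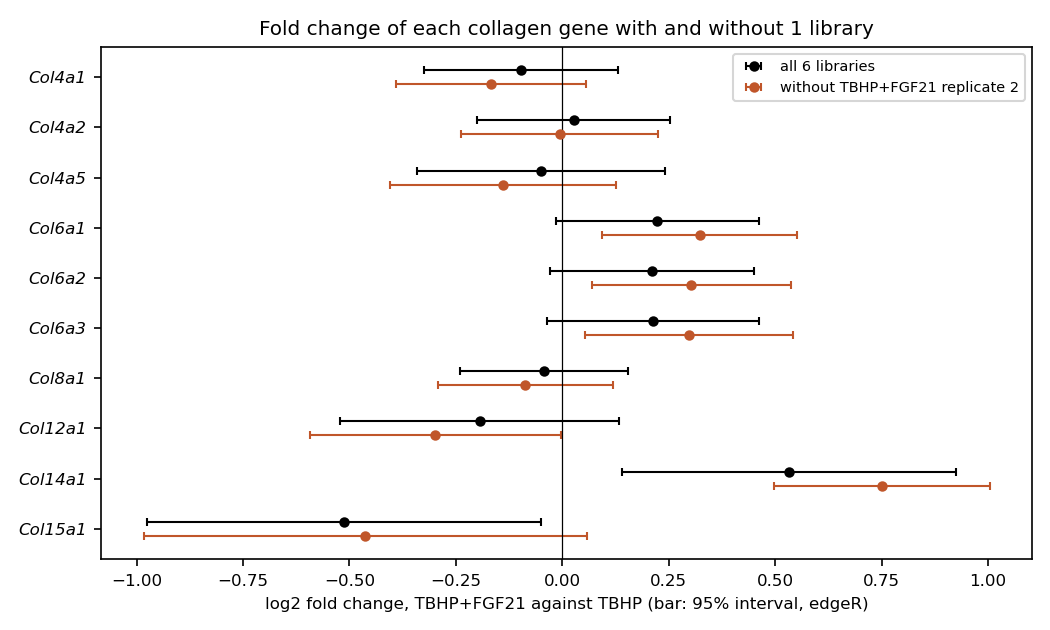
log2 fold change of TBHP+FGF21 against TBHP (horizontal axis) with its 95% interval from edgeR for each of the 10 collagen genes, with all 6 libraries (black) and without F2 (orange). With all libraries the interval leaves out 0 for Col14a1 (0.14 to 0.92) and Col15a1 (-0.98 to -0.05), and without F2 it leaves out 0 for the 3 collagen VI genes, Col12a1 and Col14a1.

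As a list, 5 of the 10 genes had a higher and 5 a lower fitted level in TBHP+FGF21, with a median log2 fold change of -0.01, beside 5592 higher and 5834 lower genes and a median of -0.01 over all genes tested. The median size of the change, whatever its sign, was 0.20 for the 10 genes and 0.13 for all genes. The change was under 0.25 on the log2 scale for 80% of the 10 genes and for 78.0% of all genes.

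The likeness of 2 genes over the 6 libraries was measured as the SD of the log2 ratio of their CPM, among 11421 genes above 0 in every library. For Col4a1 the nearest genes were Myo1c (SD 0.0169), Vars1 (0.0291) and Cplx2 (0.0323). Of the other 9 collagen genes Col4a2 came first at rank 238 (0.0888), followed by Col8a1 at rank 736 and Col4a5 at rank 1423. For Col6a1 the nearest genes were Ext2 (0.0193), Cilk1 (0.0195) and Taf6 (0.0221), while Col6a2 came at rank 217 (0.0658) and Col6a3 at rank 464 (0.0829). For Col12a1 the nearest genes were Piga (0.0401), Ccdc80 (0.0561) and Mcoln3 (0.0603), and the nearest of the other 9 collagen genes was Col4a5 at rank 53 (0.116), which shares its low value in F3. The libraries are common to all these ratios, and the SDs are descriptions.

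The 5 lists of related genes were read beside the 10. Of the other non-fibrillar collagens, 8 of 24 listed passed the count filter, 6 with a higher and 2 with a lower fitted level and a median log2 fold change of 0.17. Col18a1, the multiplexin relative of Col15a1 and source of endostatin, was at 340, 290 and 308 CPM in TBHP and at 375, 336 and 429 CPM in TBHP+FGF21. Its log2 fold change was 0.28 (adjusted p = 0.553, edgeR), the opposite sign to Col15a1, and without F2 it was 0.37 (adjusted p = 0.0432). Col20a1, a FACIT relative of Col14a1, had a log2 fold change of 0.24 (adjusted p = 0.648, edgeR) and 0.36 without F2 (adjusted p = 0.252). The alternative collagen VI genes Col6a4, Col6a5 and Col6a6 had 0 counts in all libraries, which at a floor of 3 counts allows up to 0.164 CPM in the shallowest library.

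Of the fibrillar collagens, which form the fibrils that FACITs coat, 10 of 11 listed were tested, 3 with a higher and 7 with a lower fitted level and a median of -0.07. Col11a1, a minor fibril chain that sets fibril diameter, was at 1679, 1627 and 1645 CPM in TBHP and at 1333, 1609 and 905 CPM in TBHP+FGF21, with the groups apart. Its log2 fold change was -0.36 (adjusted p = 0.553, edgeR) and -0.55 without F2 (adjusted p = 0.0196), and like Col12a1 it was lowest in F3. Col5a3 had a log2 fold change of 0.25 (adjusted p = 0.553, edgeR) and 0.36 without F2 (adjusted p = 0.0355).

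Of the basement membrane partners of collagen IV (laminins, nidogens, perlecan and others), 18 of 21 listed were tested, 12 with a higher and 6 with a lower fitted level and a median of 0.16. Unadjusted p-values under 0.05 were found for 6 of them, 5 higher and 1 lower, against 8.92% of all genes, and none passed the adjusted threshold with all libraries (edgeR). Without F2, 6 of 18 passed it, 4 higher and 2 lower, against 7.5% of all genes. The 2 lower genes had the smallest p in that fit: Fbln2, which encodes fibulin-2, had -0.75 with all libraries (adjusted p = 0.553) and -1.42 without F2 (adjusted p = 2.38e-05, edgeR), and the laminin chain gene Lamb3 had -0.66 (adjusted p = 0.568) and -1.45 without F2 (adjusted p = 6.06e-05, edgeR). Lama2, a laminin chain of muscle and nerve basement membranes, had 16, 20 and 22 counts in TBHP and 41, 23 and 51 in TBHP+FGF21, with a log2 fold change of 0.89 (adjusted p = 0.553, edgeR) and 1.15 without F2 (adjusted p = 0.0274). Lama5, a laminin chain of many adult basement membranes, had a log2 fold change of 0.55 (adjusted p = 0.553, edgeR) and 0.79 without F2 (adjusted p = 0.00197). Col4a1 and Col4a2 themselves were at -0.10 and 0.03.

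Of the collagen receptors, 13 of 15 listed were tested, 9 with a higher and 4 with a lower fitted level and a median of 0.10. Antxr2, which encodes a membrane receptor known to take up collagen VI, was at 66.7, 68.5 and 78.3 CPM in TBHP and at 103, 73.9 and 111 CPM in TBHP+FGF21. As for the collagen VI genes, F1 and F3 were above all TBHP libraries and F2 was inside their range. The log2 fold change was 0.43 (adjusted p = 0.553, edgeR) and 0.60 without F2 (adjusted p = 0.00214). Ddr2, a receptor tyrosine kinase for fibrillar collagens, had 0.29 (adjusted p = 0.553, edgeR) and 0.42 without F2 (adjusted p = 0.0247). Of the genes for collagen folding and secretion, 19 of 20 listed were tested, 9 with a higher and 10 with a lower fitted level and a median of -0.02. Fkbp14, a prolyl isomerase of the endoplasmic reticulum, had a log2 fold change of -0.27 (adjusted p = 0.553, edgeR) with the groups apart, and -0.34 without F2 (adjusted p = 0.0678). Colgalt2, a collagen galactosyltransferase, had 1 to 6 counts in TBHP and 11 to 12 in TBHP+FGF21, too few for a firm fold.

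**Figure D5:**
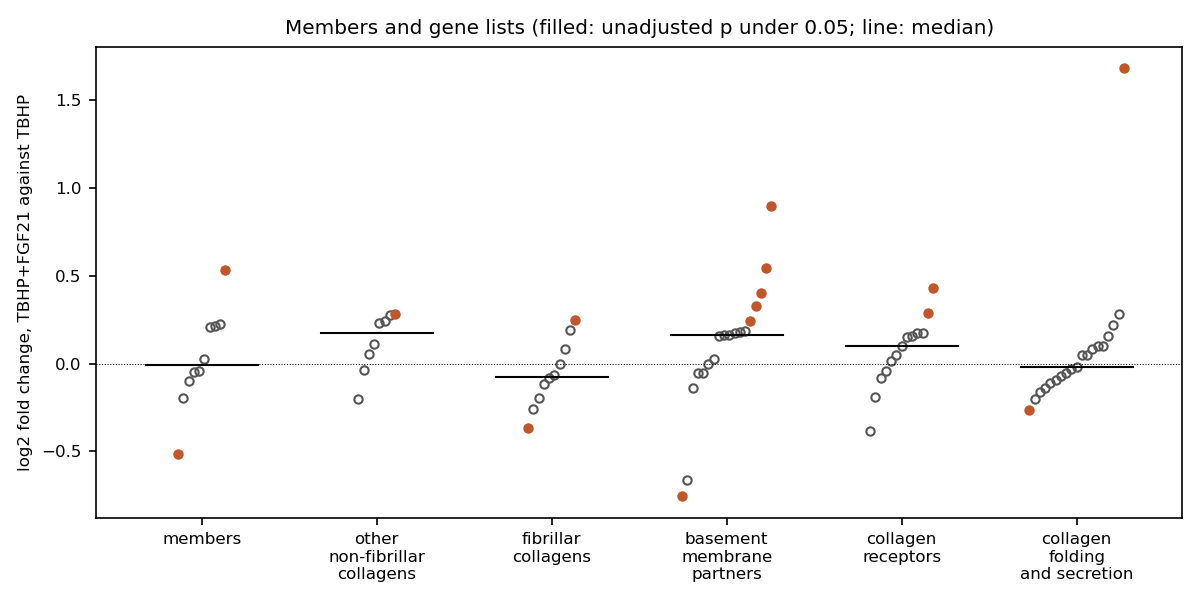
log2 fold change of TBHP+FGF21 against TBHP (vertical axis) of each tested gene among the 10 collagen genes (called members on the axis) and the 5 lists, filled where the unadjusted edgeR p was under 0.05, with a line at the median. The medians are -0.01 for the 10 genes, 0.17 for the other non-fibrillar collagens, -0.07 for the fibrillar collagens, 0.16 for the basement membrane partners, 0.10 for the receptors and -0.02 for folding and secretion.

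Markers of other cell types also differed between the libraries. Of the fibroblast and annulus markers 9 of 10 were tested, with a summed level of 68718 to 76319 CPM in TBHP and 56867 to 74863 CPM in TBHP+FGF21 and with Tnmd at 0. Most of that sum was Col1a1 and Fn1, both lowest in F3. The 9 markers had 6 with a higher and 3 with a lower fitted level and a median log2 fold change of 0.06. Their log2 fold changes with the smallest p were 0.39 for Pdgfra and -0.39 for Scx (adjusted p = 0.553 for both, edgeR), and without F2 they were 0.58 (adjusted p = 0.00219) and -0.60 (adjusted p = 0.00546). Of the pericyte and smooth muscle markers 7 of 8 were tested, with 2711 to 2982 CPM against 2360 to 2918 CPM. They had 4 with a higher and 3 with a lower fitted level and a median log2 fold change of 0.01. Of the 7, 3 had an unadjusted p under 0.05 (2 higher, 1 lower, edgeR), against 8.92% of all genes. Without F2, 5 of the 7 passed the adjusted threshold (3 higher, 2 lower), against 7.5% of all genes. Acta2, the smooth muscle actin of contractile cells, was at 910 and 687 CPM in F1 and F3 and at 1322 to 1439 CPM in the other 4 libraries, so it was low in the same libraries in which Col14a1 and the collagen VI genes were high. Its log2 fold change was -0.46 (adjusted p = 0.553, edgeR) and -0.76 without F2 (adjusted p = 0.00115). Abcc9 of the same list had 0.49 (adjusted p = 0.553, edgeR) and 0.71 without F2 (adjusted p = 0.000542). Of the notochordal nucleus pulposus markers 6 of 14 were tested, with 2519 to 2953 CPM against 2876 to 4371 CPM, nearly all of it Acan. The list had 2 genes with a higher and 4 with a lower fitted level and a median log2 fold change of -0.30. The higher genes were Acan at 0.40 and the cartilage regulator Sox9 at 0.56 (adjusted p = 0.553 for both, edgeR), and without F2 they passed the threshold at 0.54 (adjusted p = 0.0126) and 0.75 (adjusted p = 0.0216). The lower genes were Krt8 at -0.43 with the groups apart, Cd24 at -0.55, Car3 at -0.34 and Col2a1 at -0.26 (adjusted p from 0.553 to 0.823, edgeR), and none of these 4 passed it without F2 (adjusted p from 0.149 to 0.693). The part of these markers in the collagen values was not tested. Among endothelial genes, the usual source of collagen IV, VIII and XV in vessels, Cdh5, Kdr, Tie1 and Emcn had no count in any library and 1 of 8 markers (Flt1, 3.29 to 6.14 CPM) was tested. Of the macrophage markers 2 of 6 were tested, at a summed 31.9 to 37.6 CPM against 26.4 to 32.8 CPM, with Ptprc and Adgre1 at 0 and log2 fold changes of 0.09 for Cd68 (adjusted p = 0.920, edgeR, and 0.720 without F2) and -0.17 for Cd14 (adjusted p = 0.622, and 0.345 without F2).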

How the data were processed

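Poly(A) RNA of the 6 libraries was sequenced by the authors, whose processing notes name STAR and featureCounts; versions, genome build and annotation are not given in the sources used here. The authors deposited raw counts per gene, in 1 combined table with symbols and in per-sample files with unstranded and strand columns. The combined table was used. The authors deposited 22 of its rows as estimated counts with fractions, which were rounded up. In the per-sample files, reads in no feature made up 9.13% to 10.4% and ambiguous reads 1.72% to 2.09%. The strand columns held nearly equal counts (ratio 1.01 to 1.02), so reads of overlapping genes on opposite strands cannot be told apart.

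Genes were filtered with filterByExpr (minimum count 10, minimum total 15), scaled by TMM and tested with the quasi-likelihood test of edgeR 4.0.16 in R 4.3.3, with Benjamini-Hochberg adjustment over all genes tested. CPM are TMM-scaled. DESeq2 1.42.0 and limma 3.58.1 (voom) were alternatives. Chain ratios were tested by exact permutation. No pair of libraries agreed within sampling noise (chi-square per gene 7.00 to 58.9). Tested on simulated data with 200 of 11426 genes changed by 1 on the log2 scale, edgeR recovered 179 with 11 false calls. Recovery at smaller sizes, such as the median of 0.20 for the 10 collagen genes, was not tested.

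The members and lists were chosen with earlier results of these data known. Named were the 10 genes, the 2 tested genes of each list with the smallest p, and the 3 genes nearest in pattern to Col4a1, Col6a1 and Col12a1; Col1a1, Col1a2, Col2a1, Col4a3, Col4a6, Col6a4, Col6a5, Col6a6, Fbln2, Lamb3, Krt8, Cd24, Car3 and the markers at 0 were named after their values were seen. RefSeq matched 96.17% of the symbols.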

Additional observations from a re-analysis of the deposited data

How the results depend on the processing

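The count of genes at an adjusted p under 0.05, 1 in edgeR, was 4 with the Wald test of DESeq2, 0 with limma-voom (996 unadjusted), 5 with no filter, 0 with the per-sample unstranded counts (1082 unadjusted) and 0 with the strand column (1049 unadjusted). Leaving out 1 library gave 0 to 867 such genes, with 867 without F2 and 0 or 1 otherwise (337 to 1771 unadjusted, edgeR). At an unadjusted p under 0.05 it gave 0 to 5 of the 10 collagen genes (0 without T1, 1 without T2, F1 or F3, 2 without T3, 5 without F2). The share of all genes was 4.41% without T1, 2.92% without T2, 15.3% without T3, 4.15% without F1, 23.6% without F2 and 2.96% without F3. Of 150 fold changes of the 10 genes over 15 alternatives, 145 kept their direction and side of the adjusted threshold. Col14a1 passed it without F2, and 3 genes changed sign on leaving out a library: Col4a2 (-0.0386 to 0.1011), Col4a5 (-0.1386 to 0.1182) and Col8a1 (-0.0866 to 0.0096). Over the alternatives that kept all libraries Col14a1 ranged from 0.49 to 0.61 (adjusted p 0.168 to 0.569) and Col15a1 from -0.65 to -0.49 (adjusted p 0.320 to 0.662). The difference in log2 ratio was -0.0018 with the strand column and from -0.0413 to 0.0571 on leaving out a library for Col6a1 to Col6a2, and 0.0023 and from -0.0749 to 0.0463 for Col6a3 to Col6a1. List medians moved in 2 of 150 cases, to 0.39 for the notochordal markers with a minimum count of 50 and to -0.01 for the other non-fibrillar collagens with the strand column. The stricter filter drops low-count notochordal markers such as Cd24 (15 to 48 counts) and Col2a1 (9 to 14 counts), so that median covers fewer genes. The cause of the move with the strand column was not tested.

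Deviations from the group mean correlated at -0.158, 0.305 and 0.201 between libraries of the same replicate number. Libraries of different numbers were not compared in this way, so these values cannot decide whether the samples are paired. The main test did not take the numbers as pairs. With the number as a replicate block, 2 genes passed the adjusted threshold and 3 of the 10 collagen genes an unadjusted p of 0.05. Over all 11426 genes, 1599 were under that unadjusted p with the block and 1019 in the main test, so the background rose as well. None of the 10 changed its adjusted call.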

Other observations

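Col1a1 and Col1a2 encode the chains of collagen I, yet their counts differed by several orders of magnitude. Col1a1 had 639245 to 862314 counts per library and Col1a2 had 7 to 17. Of the other collagen IV chains, Col4a3 had 3 to 15 counts per library and did not pass the count filter, and Col4a6 had 38 to 77 counts and was tested.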
